A study of Mus musculus with 18 samples.

Results

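The genes described here are 34 markers of the cells of the mouse liver that are not hepatocytes, and they were picked by name from the 32285 genes of a bulk liver count table. They fall into 4 cell types: 10 genes mark Kupffer cells, 9 mark sinusoidal endothelial cells, 10 mark stellate cells and other collagen-producing mesenchyme, and 5 mark bile duct epithelium. All 34 were present in the table and all 34 passed the filter on low counts, which left 12847 genes for testing. The rule that picks them uses gene names and no measured value.

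Livers of 18 mice were sequenced, 6 in each of 3 groups, all labelled wild-type and B6D2F1, the cross of a C57BL/6 and a DBA/2 parent. Space pups were 10-week-old F1 offspring of GS cells, a culture of sperm-forming stem cells grown from newborn DBA/2 testes, after storage in a freezer aboard the space station (ISS) for 6 months. Ground pups came from GS cells stored frozen on Earth for the same time and were killed at the same age, and BDF1 mice were naturally bred controls of the same F1 strain whose age the labels do not give. In both pup groups the thawed cells were injected into the seminiferous tubules of W mice, which are infertile through mutation of Kit, and these recipients were mated with C57BL/6 females. The study's methods state that the GS cells descended from mice with an actin-driven EGFP transgene, and whether a sequenced pup inherited it is not given. The number of recipient fathers behind the sequenced pups is not given either, so pups of a group may be siblings. The Space to Ground comparison asks whether storage on the ISS left a trace in the next generation, and the comparisons with BDF1 ask the same of freezing, culture and transplantation together.

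Replicate numbers divided every group in the same way. In replicates 4 to 6 of each group Xist exceeded the sum of 4 Y-linked genes, and in replicates 1 to 3 it did not. The study used both sexes but the labels do not give the sex of a mouse, so the sets of replicates 1 to 3 and 4 to 6 are called replicate sets below. Total counts were 15407450 to 20562351 per library. The 10 most abundant genes took 14.5% to 39.5% of them, most in replicates 4 to 6 of the pups, where Alb alone reached 1.95e+05 to 3.42e+05 CPM (counts scaled to a common library size). Levels are therefore given as CPM on a library size scaled by the trimmed mean of M values (TMM), whose factors ran from 0.705 to 1.17. A count of 0 would allow up to 0.134 to 0.236 CPM by counting error alone. No member had a count of 0 in any library, and the lowest counts were 3 for Krt7, 3 for Epcam and 4 for Marco. Hepatocyte RNA dominated every liver. Markers of T and NK cells summed to 1.24 to 8.42 CPM, with Cd4 at up to 7.10 CPM and Cd3d, Cd3e and Cd3g each at no more than 0.828 CPM. Of the neutrophil and monocyte markers Ly6g was at most 0.06 CPM and Csf3r reached 2.89 CPM.

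The liver sinusoid is a capillary whose wall has no basement membrane and is perforated by pores. Kupffer cells are the resident macrophages that sit in its lumen and clear bacteria, complement-tagged particles and old red cells. Sinusoidal endothelial cells carry scavenger receptors that remove collagen fragments, hyaluronan and small immune complexes from blood. Stellate cells lie between endothelium and hepatocytes, store vitamin A as retinyl esters and become the main source of scar collagen after injury, and bile duct cells line the ducts that drain bile. In bulk tissue, fewer cells of a type and less RNA per cell cannot be told apart.

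PU.1, the Ets factor that macrophages need, binds many macrophage promoters and enhancers at sites with the core GAGGAA. Promoter windows were taken from RefSeq (build GRCm38.p6) as the 250 bases before the gene start. Windows were matched for 23 of the 34 members, and for 7 of the 10 Kupffer genes. The motif was searched as GAGGAA on the sense strand or TTCCTC, its reverse complement, and it was present in 5 of 7 Kupffer windows (71.4%), 1 of 5 endothelial windows, 2 of 9 stellate windows and 2 of 4 bile duct windows, against 7639 of 32851 windows in the whole table (23.3%). These counts are a description of letters in a short window and not of binding. The 5 Kupffer windows that lie wholly outside the annotated gene are printed 5′ to 3′ on the gene's strand because these genes moved together across livers, with the motif in capitals.
Cd5l: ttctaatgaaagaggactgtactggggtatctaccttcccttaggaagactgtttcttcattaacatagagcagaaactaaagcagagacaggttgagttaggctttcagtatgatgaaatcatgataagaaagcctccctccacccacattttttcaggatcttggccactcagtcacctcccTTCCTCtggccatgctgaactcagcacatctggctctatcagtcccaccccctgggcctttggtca
C1qb: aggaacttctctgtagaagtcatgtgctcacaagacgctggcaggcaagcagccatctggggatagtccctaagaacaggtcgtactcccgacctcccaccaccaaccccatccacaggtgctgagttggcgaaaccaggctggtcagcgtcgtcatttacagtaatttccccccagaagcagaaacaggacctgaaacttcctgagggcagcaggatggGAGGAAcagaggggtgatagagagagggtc
Vsig4: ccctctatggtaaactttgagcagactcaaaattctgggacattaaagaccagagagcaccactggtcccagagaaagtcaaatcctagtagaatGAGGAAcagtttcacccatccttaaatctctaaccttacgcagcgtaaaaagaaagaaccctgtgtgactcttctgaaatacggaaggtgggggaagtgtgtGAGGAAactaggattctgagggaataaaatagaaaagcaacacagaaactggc
Timd4: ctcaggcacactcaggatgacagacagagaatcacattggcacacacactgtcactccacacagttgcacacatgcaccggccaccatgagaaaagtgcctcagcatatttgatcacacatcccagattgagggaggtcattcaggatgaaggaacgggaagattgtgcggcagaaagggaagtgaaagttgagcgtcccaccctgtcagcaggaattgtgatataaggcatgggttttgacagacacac
Marco: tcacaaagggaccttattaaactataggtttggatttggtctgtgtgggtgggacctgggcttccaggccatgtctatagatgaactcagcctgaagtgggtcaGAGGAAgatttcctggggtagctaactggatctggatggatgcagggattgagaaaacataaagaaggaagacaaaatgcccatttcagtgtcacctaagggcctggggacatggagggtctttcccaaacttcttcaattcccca
They are chr3:87357631-87357880 on the plus strand for Cd5l, chr4:136886201-136886450 on the minus strand for C1qb, chrX:96293439-96293688 on the minus strand for Vsig4, chr11:46810549-46810798 on the plus strand for Timd4 and chr1:120505025-120505274 on the minus strand for Marco. Vsig4 had 2 copies, 155 and 53 bases before its start. C1qb had 1 copy at 30 bases, Marco 1 at 146 bases, and Cd5l 1 on the antisense strand at 66 bases. The Timd4 window held none. Distances are from RefSeq's start, and for C1qb and Timd4 the 30 bases after that start were not found in a GENCODE M21 transcript of the gene.

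**Figure D1:**
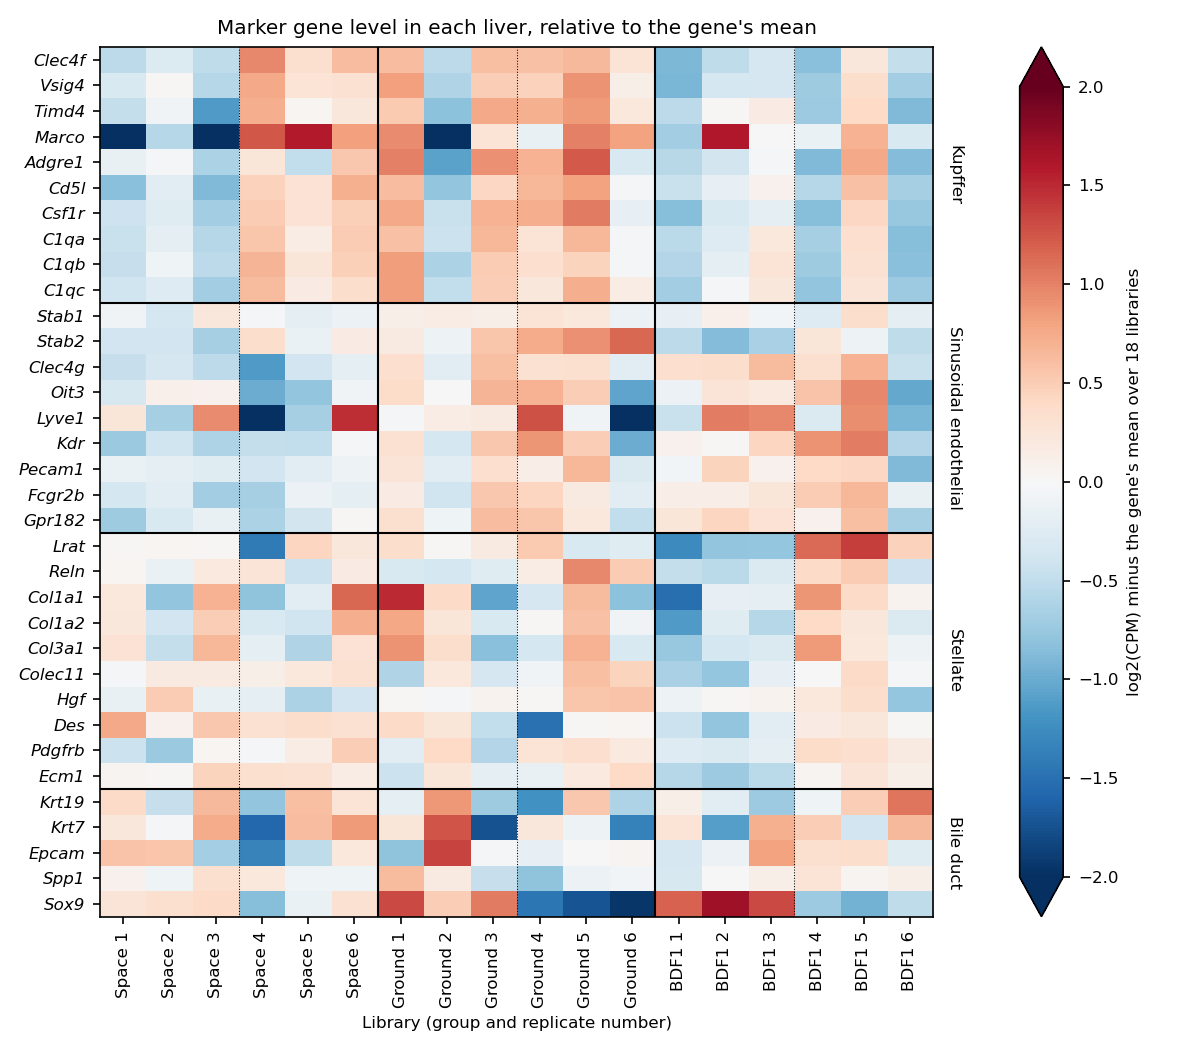
Level of each of the 34 marker genes (rows, by cell type) in each of the 18 livers (columns, by group and replicate number), as log2 CPM minus the gene's mean. Dotted lines separate replicates 1 to 3 from 4 to 6. Kupffer rows change together from liver to liver, Sox9 is low in replicates 4 to 6 of Ground and BDF1, and Lrat is low in replicates 1 to 3 of BDF1.

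Per kilobase of exon, the most abundant member was Ecm1, an extracellular matrix protein that stellate cells secrete, with a mean of 43.2 CPM per kb. It was followed by C1qa (21.4), Clec4f (20.3), C1qb (18.9), Cd5l (16.4) and Colec11 (14.3). Bile duct keratins and Epcam were the lowest members, at 0.563 CPM per kb for Krt19, 0.297 for Epcam and 0.116 for Krt7, while Spp1 of the same list reached 10.4. The coefficient of variation over the 18 livers had a median of 39.6% in the Kupffer list, 32.3% in the endothelial list, 31.0% in the stellate list and 46.0% in the bile duct list. It was lowest for Stab1 (13.9%) and highest for Sox9 (68.8%) and Marco (66.4%).

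Kupffer cell genes were higher on average in Ground pups than in BDF1 mice, but no Kupffer member passed the main test, which models group alone. Clec4f, Vsig4 and Csf1r passed in some alternative fits, given below. The summed level of the 10 genes was 240 ± 71.1 CPM in Ground pups, 195 ± 72.8 in Space pups and 150 ± 49.6 in BDF1 mice (mean ± SD, n = 6 each). The 3 ranges overlapped, with 121 to 306 CPM in Ground, 116 to 291 in Space and 109 to 234 in BDF1. Ground replicate 2, at 121 CPM, was far below the other 5 Ground livers (191 to 306), and BDF1 replicate 5, at 234 CPM, was the highest BDF1 liver.

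Clec4f, the galactose-binding lectin that is specific to Kupffer cells in the mouse (chr6:83644542-83656187, minus strand, mm10), had 71.6, 32.4 and 70.8 CPM in Ground replicates 1 to 3 and 70.0, 72.4 and 56.1 in replicates 4 to 6. In BDF1 it had 24.8, 32.7 and 36.8 CPM, then 26.0, 54.2 and 33.4. All Ground livers but replicate 2 were above every BDF1 liver. The log2 difference was 0.84 ± 0.27 (SE; unadjusted p = 0.00559, adjusted p = 0.0828 by edgeR's quasi-likelihood test over all genes). Csf1r, the receptor for the growth factor that keeps macrophages alive, had a lowest, median and highest value of 16.2, 35.9 and 45.3 CPM in Ground and 12.1, 15.4 and 29.3 CPM in BDF1 (log2 difference 0.87 ± 0.28, adjusted p = 0.0879). Vsig4, a receptor for complement fragment C3b, had 8.40, 17.7 and 23.7 CPM in Ground and 6.77, 8.95 and 16.2 CPM in BDF1 (0.82 ± 0.26, adjusted p = 0.0842). For these genes too the group ranges overlapped. Adgre1, which encodes the F4/80 antigen, differed by 0.81 ± 0.35, and Timd4, a receptor for phosphatidylserine on dying cells, by 0.64 ± 0.31.

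Of the 10 Kupffer genes, 9 had a positive log2 difference between Ground and BDF1, with a median of 0.63, and 6 had an unadjusted p under 0.05, but 0 passed the adjusted threshold of 0.05, where 1.76% of all 12847 genes passed as higher and 2.05% as lower. Over all genes the median was 0.02, and 2655 of 12847 had an unadjusted p under 0.05. Marco, a scavenger receptor for bacteria, was the exception, at -0.01 ± 0.61. With counts scaled by total library size in place of TMM factors, the median over all genes moved to -0.24 and the Kupffer median to 0.35, still with 9 of 10 positive. Clec4f, Vsig4 and Csf1r passed with DESeq2, with Xist class in the model and without Ground replicate 2, at adjusted p between 0.0221 and 0.0475. Between Space and BDF1 all 10 differences were positive under TMM scaling, with a median of 0.27, but only 4 of 10 were positive under total-count scaling, with a median of -0.04 against -0.25 over all genes. Between Space and Ground 9 of 10 were negative, with a median of -0.31. Space against BDF1 and Ground against BDF1 share the same 6 BDF1 livers. The 10 Kupffer genes also varied together within groups (median r of 0.92, given below), so their signs are not separate observations.

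Other Kupffer genes that are not members were read from a list of 12. Of these, Cd163, the haemoglobin scavenger receptor, and Folr2, a folate receptor, were higher in both pup groups than in BDF1. Cd163 was 8.87 to 17.4 CPM in Ground, 7.47 to 16.9 CPM in Space and 3.62 to 8.10 CPM in BDF1, so that Ground and BDF1 did not overlap. Its log2 differences were 1.46 ± 0.24 for Ground (adjusted p = 0.00514) and 0.94 ± 0.24 for Space (adjusted p = 0.0371). Folr2 differed by 1.09 ± 0.22 (adjusted p = 0.0156) and 0.81 ± 0.22 (adjusted p = 0.0499). Id3, a transcriptional inhibitor also used by other cells, was lower in Space than in BDF1, by 1.14 ± 0.24 on the log2 scale with no overlap (6.60 to 20.5 against 24.5 to 32.2 CPM; adjusted p = 0.013). Ground livers, at 12.1 to 23.4 CPM, were also all below BDF1, with a difference of -0.72 ± 0.24 (adjusted p = 0.0916). In that list 2 of 12 genes were called higher and 1 lower in Space, and 2 of 12 higher and 0 lower in Ground. Over all genes 2.34% were called higher and 1.46% lower in Space against BDF1, and 1.76% and 2.05% in Ground against BDF1. Markers of neutrophils and monocytes summed to 2.72 to 6.90 CPM in Space, 3.36 to 7.29 in Ground and 0.894 to 4.11 in BDF1, with 0 of 4 tested called, and their part in the Kupffer differences was not tested.

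The 3 chains of complement C1q are made by macrophages and assemble into a hexamer of trimers that starts the classical pathway. C1qa, C1qb and C1qc lie side by side on chromosome 4 and their counts kept a near-constant ratio in every liver. C1qa held 34.4 ± 1.68% of the summed C1q counts, C1qb 31.5 ± 1.57% and C1qc 34.2 ± 1.85% (mean ± SD, n = 18), although the sum itself ran from 701 to 2120 counts. The level of C1qa was 15.6 to 33.6 CPM in Ground, 14.2 to 30.9 in Space and 11.7 to 26.7 in BDF1. Its log2 difference was 0.57 ± 0.25 in Ground pups and 0.29 ± 0.25 in Space pups relative to BDF1, and neither passed.

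**Figure D2:**
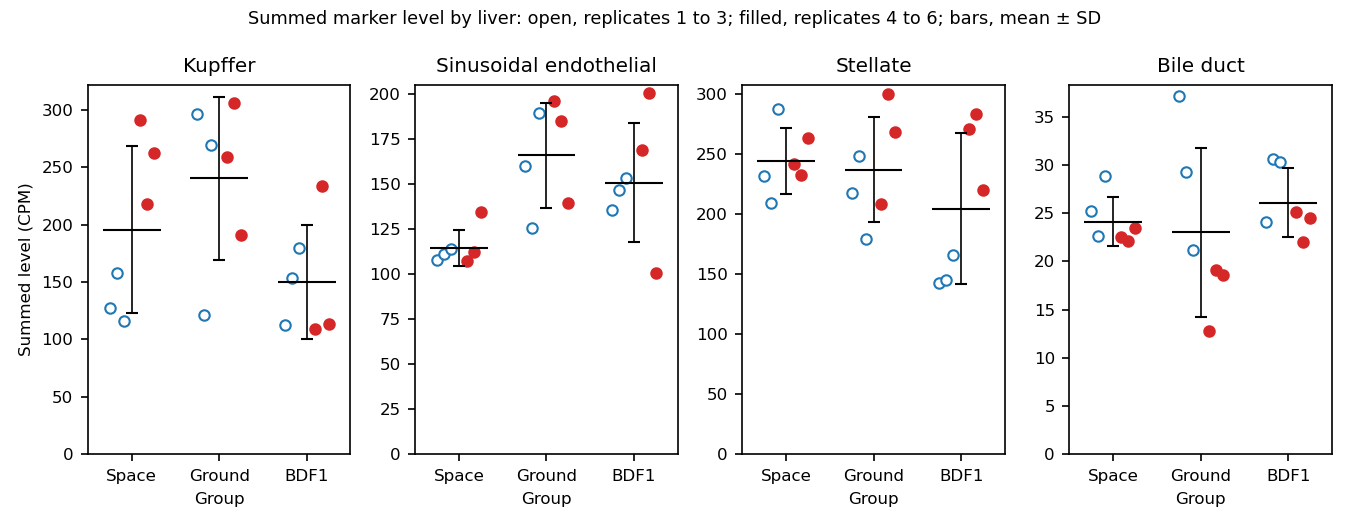
Summed CPM of each marker list in each liver (points), by group, with open points for replicates 1 to 3, filled points for replicates 4 to 6, and lines for the group mean ± SD over 6 livers. The Kupffer sum of Space replicates 4 to 6 (218 to 291 CPM) lies above that of Space replicates 1 to 3 (116 to 158 CPM), and the endothelial sum of Space pups (107 to 135 CPM) sits low and close together.

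Sinusoidal endothelial genes gave the members that passed the test between groups. Clec4g and Fcgr2b were lower in Space pups and Stab2 was higher in Ground pups, each against BDF1. The summed level of the 9 genes was 115 ± 10.2 CPM in Space, 166 ± 29.1 in Ground and 151 ± 33.3 in BDF1 (n = 6 each). Space livers ran from 107 to 135 CPM, Ground livers from 125 to 196 and BDF1 livers from 101 to 200. The ranges overlapped, and the lowest liver of all was BDF1 replicate 6.

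Clec4g, the sinusoidal lectin LSECtin (chr8:3707064-3720651, minus strand), had 15.5, 16.9 and 14.8 CPM in Space replicates 1 to 3 and 9.74, 16.4 and 18.7 in replicates 4 to 6. In BDF1 it had 26.9, 27.1 and 33 CPM, then 26.5, 34.5 and 15.6. In Ground it had 26.7, 18.3 and 32.2 CPM, then 26.4, 26.5 and 18.2. Space livers were all below BDF1 livers except that BDF1 replicate 6 fell within the Space range. The fall in Space against BDF1 was 0.83 ± 0.19 on the log2 scale (adjusted p = 0.0199). Leaving out BDF1 replicate 5 raised the adjusted p to 0.0574, and the other 17 leave-one-out fits kept it under 0.05. The difference was -0.88 in replicates 1 to 3 alone (adjusted p = 0.0132) and -0.77 in replicates 4 to 6 alone (adjusted p = 0.169). Space against Ground was -0.69 ± 0.19 (unadjusted p = 0.00181, adjusted p = 0.376).

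Fcgr2b, the inhibitory Fc receptor with which sinusoidal endothelium takes up small immune complexes (chr1:170958617-170976547, minus strand), had a lowest, median and highest value of 12.4, 16.4 and 18.5 CPM in Space. The values were 18.1, 22.9 and 31.7 CPM in BDF1 and 15.3, 22.5 and 29.1 CPM in Ground. Only the highest Space liver reached above the lowest BDF1 liver. The fall in Space against BDF1 was 0.63 ± 0.17 on the log2 scale (adjusted p = 0.0403). The adjusted p was under 0.05 in 9 of 18 leave-one-out fits. It was above without any 1 of Space replicates 1 to 4 and BDF1 replicates 1 to 5, and reached 0.103 without BDF1 replicate 4. Fcgr2b is also expressed by B cells and macrophages, and the B and plasma cell list summed to 9.43 to 20.9 CPM in Space and 3.55 to 9.66 CPM in BDF1. The part of these cells in the Fcgr2b difference was not tested.

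The 2 called genes are read against 1.46% of all genes called lower and 2.34% called higher in Space against BDF1. Of the 9 endothelial genes 8 had a negative difference there, with a median of -0.53 and 4 with an unadjusted p under 0.05, as 2668 of all 12847 genes had. These 9 genes varied together within groups (median r of 0.64, given below), so their signs are not separate observations. Kdr, the VEGF receptor that sinusoids need for survival, was at 8.07 to 13.1 CPM in Space and 8.98 to 27.3 in BDF1 (-0.86 ± 0.28, adjusted p = 0.0935). Gpr182, a scavenging chemokine receptor of these cells, was at 7.25 to 12.1 CPM and 7.52 to 18.1 (-0.55 ± 0.20, adjusted p = 0.137). Oit3 differed by -0.53 ± 0.31, and Pecam1, a junction protein of all endothelium, by -0.34 ± 0.19. Lyve1, a hyaluronan receptor, ran from 0.471 to 5.52 CPM within Space alone (-0.09 ± 0.52). With DESeq2, voom, total-count scaling, replicates 1 to 3 alone or BDF1 replicate 6 left out, Kdr passed at adjusted p from 0.0404 to 0.0499. With total-count scaling all 9 were negative and 3 were called, where 649 of all genes were called lower and 66 higher. A separate list of 12 endothelial genes had 12 of 12 negative differences in Space against BDF1, with a median of -0.35 against 0.00 over all genes, 6 with an unadjusted p under 0.05 and 0 called.

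Between Space and Ground 8 of 9 endothelial genes were negative, with a median of -0.57 and 5 with an unadjusted p under 0.05. None was called, and the percentage of all genes called between Space and Ground was 0. At an unadjusted p under 0.05 there were 1186 of 12847 genes in that comparison. DESeq2 and limma voom also called 0 of the 34 members, and 30 and 0 of all genes. The smallest adjusted p among members was 0.376, for Clec4g and Stab2. Between Ground and BDF1 the endothelial median was 0.02, with 5 of 9 positive under TMM scaling and 1 of 9 under total-count scaling.

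**Figure D3:**
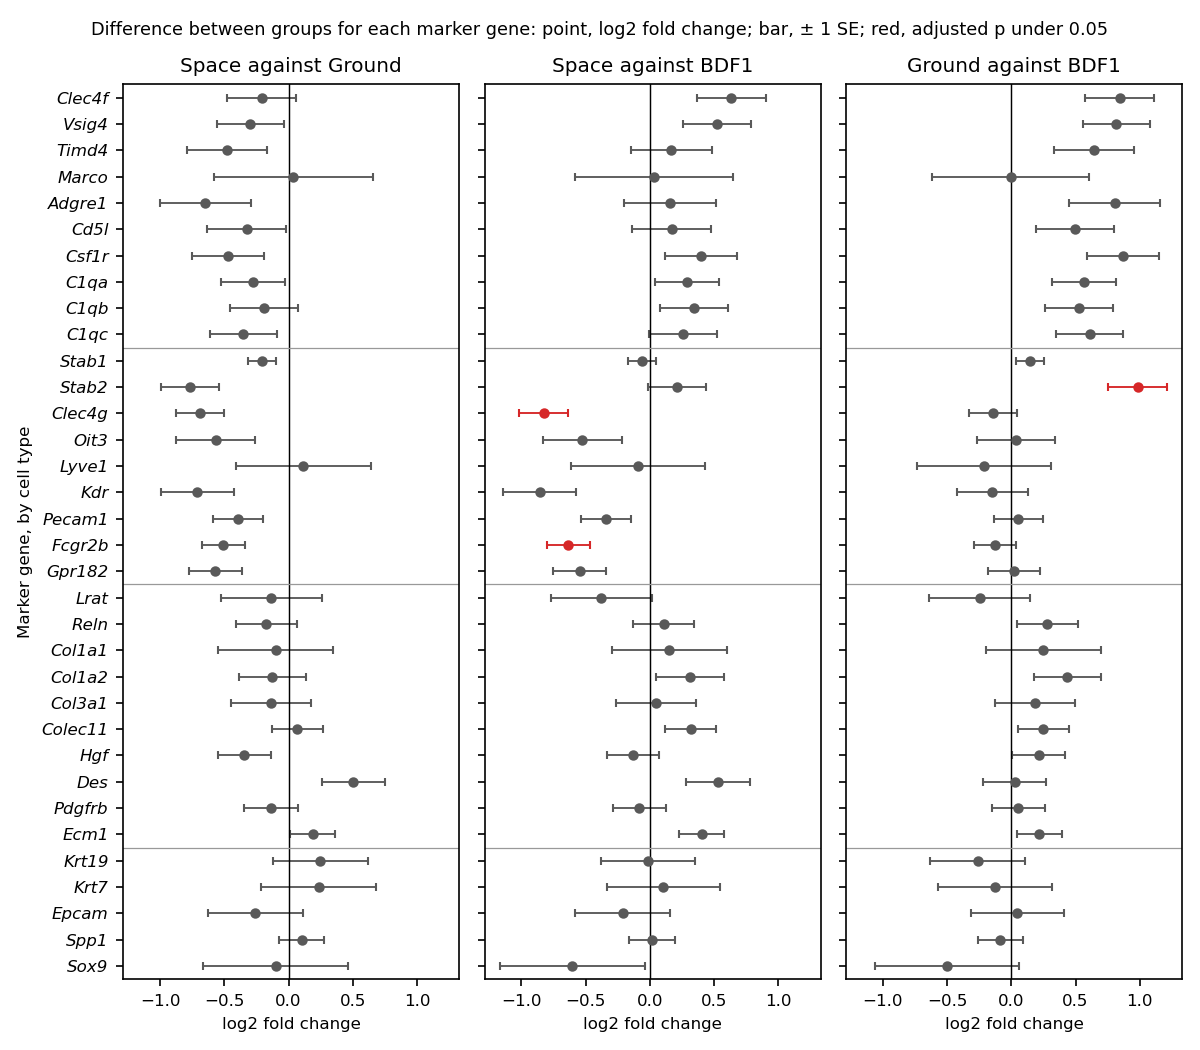
Log2 fold change (points) with ± 1 SE (bars) of every marker gene in the 3 comparisons between groups, with genes past an adjusted p of 0.05 in red. Endothelial genes other than Stab2 lie left of 0 in Space against BDF1, and Kupffer genes other than Marco lie right of 0 in Ground against BDF1, while the called genes are Clec4g, Fcgr2b and Stab2.

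Stab2 took a course of its own within the endothelial list. It encodes stabilin-2, the scavenger receptor for hyaluronan (chr10:86841198-87008025, minus strand). Ground replicates 1 to 3 had 26.5, 21.9 and 34.4 CPM and replicates 4 to 6 had 39.3, 44.4 and 52.3. BDF1 had 16.4, 12.8 and 15.04 CPM, then 27.8, 21.9 and 16.5, and Space had 18.1, 18.0 and 14.8 CPM, then 29.9, 21.4 and 26.2. Within each replicate set every Ground liver was above every BDF1 liver, while over all replicates the groups overlapped. The rise in Ground against BDF1 was 0.98 ± 0.23 on the log2 scale (adjusted p = 0.0261). It was 0.89 in replicates 1 to 3 alone (adjusted p = 0.0136) and 1.03 in replicates 4 to 6 alone (adjusted p = 0.0184). The adjusted p rose to 0.0622 without Ground replicate 6, 0.0563 without BDF1 replicate 6 and 0.0548 without BDF1 replicate 2, and to 0.0897 without Space replicate 4 and Ground replicates 5 and 6 together. Those 3 livers were singled out for a high level of Serpina6, a hepatocyte gene outside the lists, and Vwf, a large-vessel endothelial gene, was 48.3, 58.1 and 23.3 CPM in them against at most 10.9 in the other 15, a gap whose part in the Stab2 difference was not tested. Stab1, the paralogous receptor stabilin-1, was nearly level at 25.9 ± 3.54 CPM in Space, 29.8 ± 2.63 in Ground and 26.9 ± 4.5 in BDF1.

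Stab2 also differed between replicate sets. Across groups it was higher in replicates 4 to 6 than in 1 to 3 by 0.64 ± 0.11 on the log2 scale (adjusted p = 0.000197), with a mean of 31.1 against 19.8 CPM. Within each of the 3 groups every liver of replicates 4 to 6 was above every liver of replicates 1 to 3, in BDF1 by as little as 16.5 against 16.4 CPM. The difference between groups in that rise was near 0 (Ground against BDF1 0.13 ± 0.27, Space against BDF1 0.02 ± 0.28). No other endothelial member was called between the sets.

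None of the 10 stellate members was called between groups by group alone over all livers. In replicates 1 to 3 alone, Ecm1 (0.79, adjusted p = 0.0172), Reln (0.48, adjusted p = 0.0208) and Lrat, given below, were called higher in Space than in BDF1, in a fit that called 646 of 12739 genes higher and 444 lower. The summed level was 245 ± 27.6 CPM in Space, 237 ± 44.0 in Ground and 205 ± 62.7 in BDF1 (n = 6 each). Ecm1 alone, with a mean of 109 CPM over all livers, was the largest part of this sum, which therefore follows Ecm1 closely. In BDF1 the sums of replicates 1 to 3 (143 to 166 CPM) and 4 to 6 (220 to 283 CPM) did not overlap, while in Space (209 to 288 and 233 to 263 CPM) and Ground (179 to 248 and 208 to 300.3 CPM) they did. Of the 10 genes 7 had a positive difference in Space against BDF1 and 9 in Ground against BDF1, but with total-count scaling these were 4 and 2. Ecm1 was at 108 to 145 CPM in Space and 64.3 to 127 in BDF1 (0.40 ± 0.18, adjusted p = 0.195), though it passed with Xist class in the model (0.45, adjusted p = 0.0495) and with voom (0.55, adjusted p = 0.0405), which called 1330 and 1304 of all genes against 488. Des, the intermediate filament desmin, was at 3.69 to 5.89 and 2.03 to 4.07 CPM (0.53 ± 0.25, adjusted p = 0.227). Of 12 further stellate genes, Adamtsl2, a regulator of matrix TGF-beta, was called higher in both pup groups without overlap (4.86 to 10.1 CPM in Space and 4.89 to 8.37 in Ground against 2.33 to 4.80 in BDF1). Its differences were 1.01 ± 0.21 (adjusted p = 0.0143) and 0.81 ± 0.21 (adjusted p = 0.0427). Hand2, a transcription factor that marks stellate cells, was called higher in Ground (0.78 ± 0.20, adjusted p = 0.0421). None of the 6 tested genes of activated myofibroblasts was called in any comparison.

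Between replicate sets 18.2% of all genes were called higher in replicates 4 to 6 and 17.7% lower, and against this background 6 of the 34 members were called higher and 1 lower, a share near the background for the higher calls. Of the 6, 4 were stellate genes. Pdgfrb, the PDGF receptor of mesenchyme, was higher by 0.48 ± 0.12 (adjusted p = 0.00542). Reln, a secreted glycoprotein of stellate cells, was higher by 0.50 ± 0.15, Colec11, a lectin of the complement system, by 0.43 ± 0.13, and Ecm1 by 0.36 ± 0.11. In the pups alone none of these 4 was called, with 0.45 for Pdgfrb (adjusted p = 0.073), 0.43 for Reln (0.109), 0.33 for Colec11 (0.136) and 0.17 for Ecm1 (0.379). In BDF1 alone they were 0.54 to 0.75 and called. The test of the difference between the pup groups and BDF1 called none of the 4 (adjusted p from 0.121 to 0.978). With total-count scaling that test called Ecm1 in both comparisons with BDF1. Its values were -0.911 in Ground (adjusted p = 0.0221) and -0.961 in Space (adjusted p = 0.0266). Of all 12847 genes, 1539 and 561 were called there. Clec4f, of the Kupffer list, was higher by 0.51 ± 0.18 (adjusted p = 0.0378), and Stab2 was the endothelial gene. The Clec4f call was kept in 10 of 18 leave-one-out fits and lost without Space replicate 1, 2, 3, 4 or 6, Ground replicate 2, or BDF1 replicate 1 or 5, with adjusted p up to 0.0878. Clec4f differed by 0.63 in the pups alone (adjusted p = 0.0413) and by 0.27 in BDF1 alone (adjusted p = 0.455). With total-count scaling, which moved the median of all genes to -0.24, Clec4f and the 4 stellate genes kept a positive sign and were no longer called (0.10 to 0.26).

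Col1a1 (56.4%) and Lrat (50.4%) had the highest coefficients of variation in the stellate list. Col1a1, a chain of collagen I, was at 3.85 to 14.8 CPM in Space, 3.21 to 18.8 in Ground and 2.35 to 12.4 in BDF1, and Col3a1 at 13.7 to 32.9, 11.6 to 38.8 and 12.3 to 37.5 CPM. No group stood apart. Within BDF1 alone all 3 collagen genes were called higher in replicates 4 to 6, Col1a1 by 1.00 (adjusted p = 0.0491), Col1a2 by 0.76 (adjusted p = 0.0434) and Col3a1 by 0.84 (adjusted p = 0.0257), where 1551 of 12698 genes were. Hgf, the growth factor for hepatocytes, was at 1.98 to 4.38 CPM in Space and 2.99 to 4.55 in Ground (-0.34 ± 0.21). Of 13 tested ligands and partners of the member receptors, Met, the receptor for Hgf, was called lower in Space than in BDF1 (49.5 to 65.8 against 62.2 to 87.8 CPM), with a fall of 0.50 ± 0.12 on the log2 scale (adjusted p = 0.0306).

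Lrat, which makes the retinyl esters that stellate cells store (chr3:82892579-82903973, minus strand), differed between replicate sets in BDF1 in a way that it did not in the pups, by the test of that difference. BDF1 replicates 1 to 3 had 3.10, 4.33 and 4.39 CPM and replicates 4 to 6 had 16.4, 19.6 and 10.3. Space had 7.60, 7.69 and 7.63 CPM, then 2.83, 10.1 and 8.80, and Ground had 9.59, 7.67 and 8.53 CPM, then 10.8, 6.10 and 6.35. The sets were apart in BDF1 and overlapped in both pup groups. Within BDF1 the difference between sets was 1.98 on the log2 scale (adjusted p = 0.000492), and in the pups alone it was -0.11 (adjusted p = 0.777). The test of the difference itself gave -2.03 ± 0.48 for Space against BDF1 (adjusted p = 0.0291) and -2.12 ± 0.48 for Ground against BDF1 (adjusted p = 0.0252). Leaving out each library in turn, these were called in 10 of 18 and 10 of 18 fits, with adjusted p up to 0.0841 and 0.0771, both without BDF1 replicate 5. In replicates 1 to 3 alone Lrat was higher than in BDF1 by 0.96 in Space (adjusted p = 0.00694) and 1.12 in Ground (adjusted p = 0.0059), while over all 6 livers the differences were -0.38 and -0.25.

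Bile duct genes other than Spp1 were low, and no member was called between groups over all livers. In replicates 1 to 3 alone Sox9 was lower in Space than in BDF1, at -1.10 on the log2 scale (adjusted p = 0.0113). Their sum was 24.1 ± 2.54 CPM in Space, 23.0 ± 8.74 in Ground and 26.1 ± 3.55 in BDF1 (n = 6 each), most of it Spp1. Spp1, the secreted phosphoprotein osteopontin, was at 15.8 to 21 CPM in Space, 9.61 to 25.9 in Ground and 13.4 to 20.3 in BDF1. The keratins that define the duct, Krt19 (0.413 to 2.01 CPM over all livers) and Krt7 (0.211 to 1.68 CPM), and the adhesion protein Epcam (0.236 to 1.52 CPM) rested on 3 to 40 counts per library. Differences between groups in these 3 genes were from -0.26 to 0.25 with SE from 0.36 to 0.45.

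Sox9, the transcription factor of duct cells, which periportal hepatocytes also express, was the 1 member called lower in replicates 4 to 6 (chr11:112782224-112787760, plus strand). BDF1 had 8.37, 12.1 and 9.30 CPM in replicates 1 to 3 and 2.23, 1.92 and 2.61 in replicates 4 to 6. Ground had 9.20, 5.20 and 7.58 CPM, then 1.36, 1.12 and 0.966, and Space had 4.42, 4.63 and 4.80 CPM, then 2.04, 3.36 and 4.6. The sets were far apart in BDF1 and Ground, and overlapped in Space. Across groups Sox9 fell by 1.72 ± 0.27 on the log2 scale (adjusted p = 8.79e-05), and it stayed called in all 18 leave-one-out fits. The other 4 bile duct genes were not called between sets, with differences from -0.36 to 0.12. Cdh1, the epithelial cadherin, from the further bile duct list, fell by 1.21 ± 0.21 across groups (adjusted p = 0.000272), but in BDF1 and in Space its sets lay unlike those of Sox9. In BDF1 its sets overlapped (55.4 to 88.1 and 43.9 to 63.3 CPM), and in Space they did not (42.1 to 60.9 and 14.8 to 18.1 CPM).

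The size of that fall differed between groups. The difference between sets was smaller in Space than in BDF1 by 1.68 ± 0.37 on the log2 scale (adjusted p = 0.0182), against 1.93% of all genes called higher and 1.52% lower in that test. For Space against Ground it was 2.21 ± 0.39, with an adjusted p of 0.0984 in a test that called 0% of all genes (1003 at an unadjusted p under 0.05). For Ground against BDF1, where 1.42% of genes were called higher and 1.49% lower, it was -0.53 ± 0.39 (adjusted p = 0.527). The Space to BDF1 value was called in 15 of 18 leave-one-out fits, and its adjusted p was 0.0594 without BDF1 replicate 5, 0.0550 without BDF1 replicate 2 and 0.05002 without Space replicate 1. With total-count scaling it was 1.43 (adjusted p = 0.056).

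**Figure D4:**
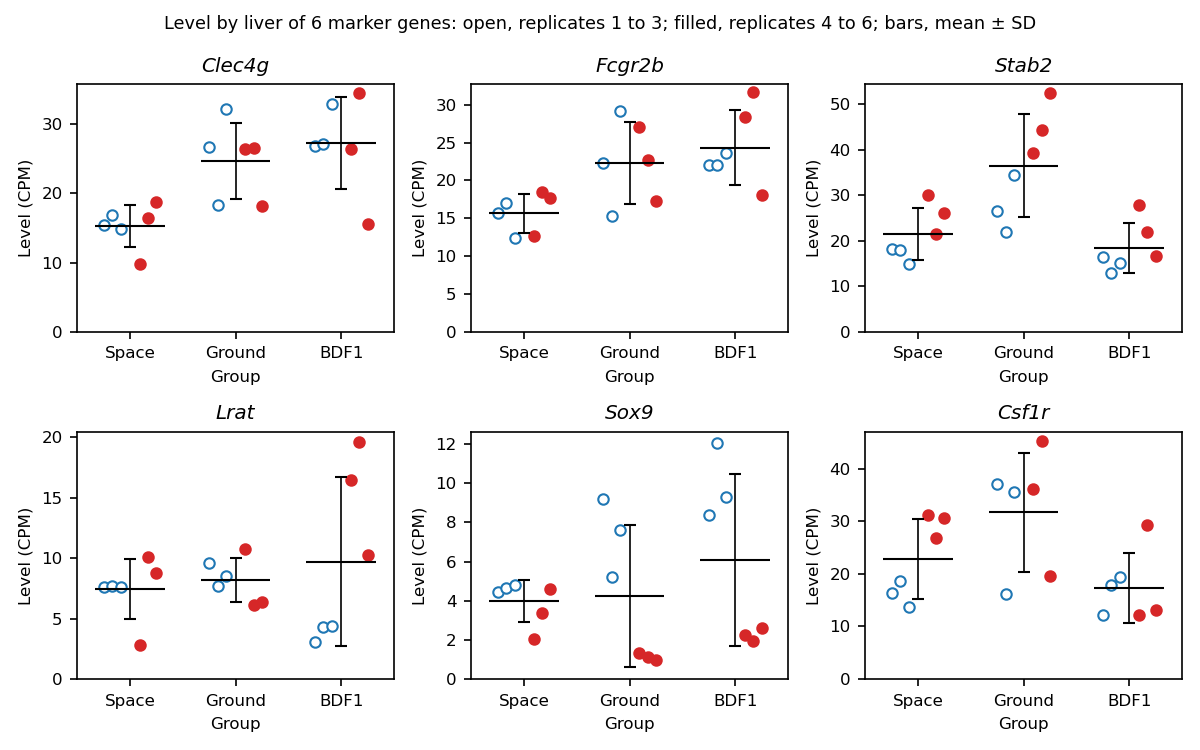
CPM of 6 marker genes in each liver (points), by group, with open points for replicates 1 to 3, filled points for replicates 4 to 6, and lines for the mean ± SD over 6 livers. Clec4g and Fcgr2b are low in Space, Stab2 is high in Ground and higher in filled than in open points, Lrat is split by replicate set in BDF1, Sox9 is split by replicate set in Ground and BDF1, and Csf1r of Ground replicates 2 and 6 lies within the BDF1 range.

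Within groups, the livers also differed from each other, and the markers of a cell type moved together to very different degrees. For each pair of members, Pearson's r of log2 CPM was taken over the 18 libraries after the mean of each group and replicate set had been removed. These values are a description, since all genes of a library share its scaling and depth. Among the 45 Kupffer pairs the median r was 0.92, with a range of 0.55 to 0.97 and all 45 above 0. Vsig4 and C1qc were closest (0.97), C1qa and C1qb reached 0.96, and Marco was loosest, at 0.66 with its list in the median. Among the 36 endothelial pairs the median was 0.64, led by Oit3 with Kdr (0.95) and Clec4g with Fcgr2b (0.92).

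Stab2 and Stab1 stood outside the endothelial block. The median r with the list was 0.22 for Stab2 and 0.39 for Stab1, against 0.62 to 0.81 for the other 7, and the r between them was -0.31. Kupffer and endothelial genes varied together as well, with a median r of 0.48 and 89 of 90 pairs above 0. The stellate list was looser, with a median of 0.31 over 45 pairs. Within it Col1a1, Col1a2 and Col3a1, chains of the fibrillar collagens I and III, formed a tight group (0.89 to 0.95), and Ecm1 with Colec11 had 0.75.

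Lrat had a median r of -0.01 with the other stellate genes and 0.57 with the endothelial genes, and with Clec4g it had 0.76. The bile duct list had a median of 0.14 over 10 pairs, with Krt19 and Krt7 highest (0.52). Spp1 had -0.00 with its own list and 0.77 with Des. At the low counts of Krt7 and Epcam, counting error lowers any r.

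**Figure D5:**
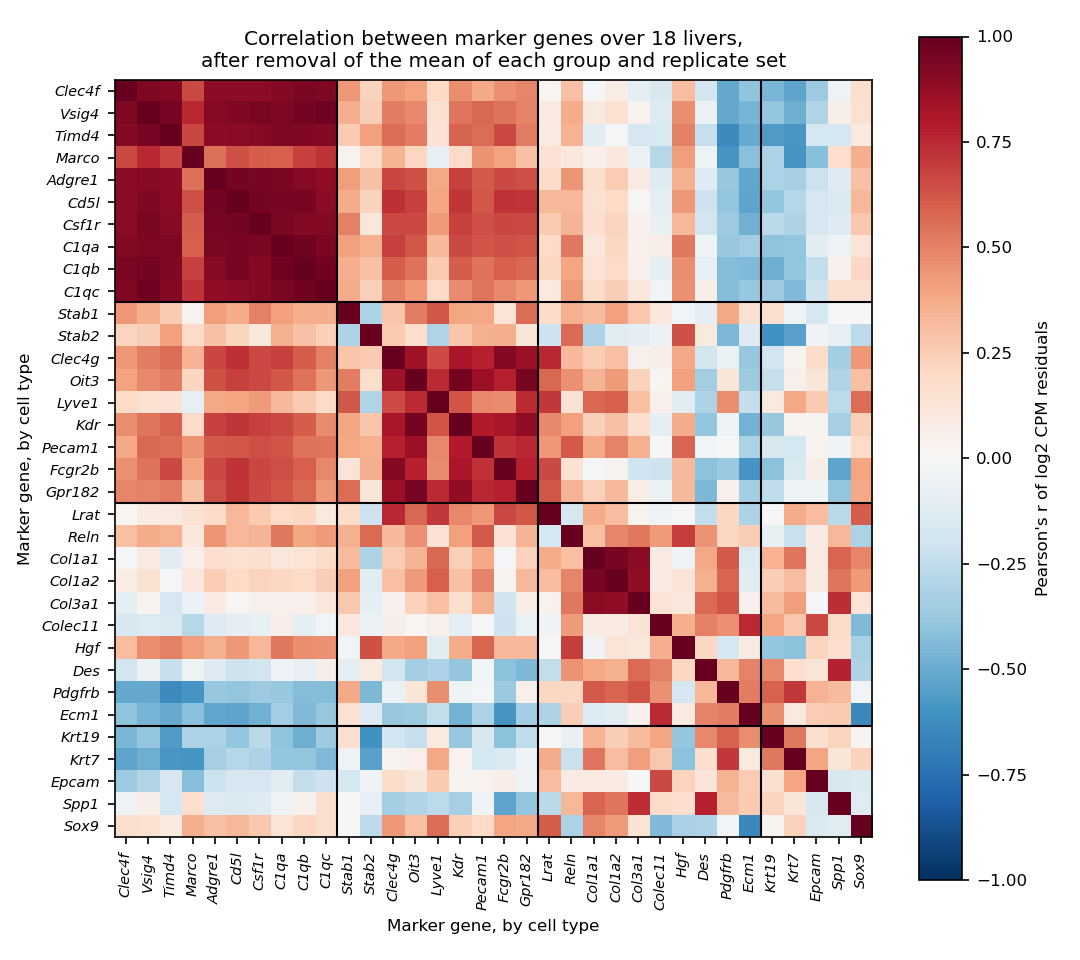
Pearson's r between all pairs of the 34 marker genes (both axes, by cell type) over 18 livers, for log2 CPM with the mean of each group and replicate set removed. Kupffer genes form a nearly solid block with a median of 0.92, endothelial genes a weaker block of 0.64 that leaves out Stab1 and Stab2, and stellate (0.31) and bile duct (0.14) genes no block beyond the fibrillar collagens.

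Among 11612 genes outside all lists with a mean of at least 1 CPM, those whose level followed each list's mean most closely over the same 18 libraries were named by the same r. For Kupffer genes they were Lgmn (0.94), Cd300ld (0.94), Sdc3 (0.93), Cybb (0.93) and Hip1 (0.93). For endothelial genes they were Aqp1 (0.97), Ndst1 (0.96), C1qtnf1 (0.95), Tspan18 (0.94) and Tinagl1 (0.94). For stellate genes they were Lhfp (0.90), Mphosph6 (0.85), Fhl1 (0.82), Pde7b (0.81) and Gsn (0.81), and for bile duct genes Taf6l (0.85), Lama2 (0.84), Serinc2 (0.83), Bmyc (0.82) and Prss23 (0.80).

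The Kupffer sum also differed between replicate sets in Space pups. Space replicates 1 to 3 had 127, 158 and 116 CPM and replicates 4 to 6 had 291, 218 and 262, so the sets did not overlap. In Ground the sets had 121 to 296 and 191 to 306 CPM, and in BDF1 112 to 179 and 109 to 234. The test of that difference between Space and BDF1 was positive for 10 of 10 Kupffer genes, with a median of 0.97 under TMM scaling and 9 of 10 with a median of 0.67 under total-count scaling, but 0 were called. These genes varied together within groups, so their signs are not separate observations. Marco had the largest value, 3.15 ± 0.98 (adjusted p = 0.0846). It was 0.236, 0.876 and 0.320 CPM in Space replicates 1 to 3 and 3.06, 3.90 and 2.30 in replicates 4 to 6. Spic, a macrophage factor for iron recycling from the further Kupffer list, was called in the same test (2.61 ± 0.66, adjusted p = 0.0404). Mki67, a marker of dividing cells, was 3.06 to 29.5 CPM in Space replicates 4 to 6 and at most 0.648 in Space replicates 1 to 3. The summed level of the cell division list was 7.202 to 58.3 against 3.38 to 4.12 CPM in Space and 19.8 to 35 against 3.92 to 5.88 CPM in Ground, where the Kupffer sets overlapped. Its part in the Kupffer values was not tested.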

How the data were processed

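Whole-gene read counts of 18 livers were used as the authors deposited them. Per the labels, polyadenylated RNA was sequenced from Illumina Stranded mRNA libraries, and the submitters' processing notes name bcl2fastq 2.20, cutadapt 4.6, HISAT2 2.2.1, HTSeq 2.0.2 and build mm10. The strand setting and the treatment of reads shared by genes are not given in the sources used here, so values of overlapping genes and of close paralogs are uncertain to that extent. Lengths and coordinates are from GENCODE M21.

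Genes were filtered with filterByExpr, scaled by TMM and tested with edgeR 4.0.16 in R 4.3.3 (quasi-likelihood F test on group over all 18 libraries, Benjamini-Hochberg adjustment over 12847 genes, called at adjusted p under 0.05). SE is the log2 change divided by the root of F. Replicate sets were tested with group in the model, and their difference between groups as an interaction. DESeq2 1.42.0, limma 3.58.1 voom, other scalings and filters, and left-out libraries were alternatives. The test was also run on simulated counts, whose outcome is not given here.

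The members and lists were chosen with earlier results of these data known. All 34 members are named, and from each other list up to 4 called genes with the largest change and a mean of at least 1 CPM, with a few further genes given as checks of tissue or other cell types. Deviations of same-numbered libraries correlated in all 18 pairs (r 0.231 to 0.654), but with the replicate set removed the median r was -0.05, so the numbers share the set and do not pair single livers. They were treated as a replicate block in an alternative fit. No pair of libraries of the same group was a duplicate, and pairs across groups were not compared. Some pups of a group shared a father and the labels do not exclude littermates, so p-values measure only the spread between these livers.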

Additional observations from a re-analysis of the deposited data

Results flagged for a closer look

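Lrat and Sox9 differed between replicate sets by an amount that depended on the group. For Lrat the interaction was -2.03 on the log2 scale between Space and BDF1 and -2.12 between Ground and BDF1, and for Sox9 it was 1.68 for Space against BDF1.

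In 5 of 114 sets of 6 livers, 1 liver stood apart from the rest by a gap above Dixon's critical value for 6 samples. Chance gives about 1 in 20, or 5.7 sets. Vsig4 was 16.2 CPM in BDF1 replicate 5 against 10.1 in the next liver (gap 0.644 of the range). Lrat was 2.83 CPM in Space replicate 4 against 7.6 in the next (0.658). Hgf was 4.38 CPM in Space replicate 2 against 2.78 (0.668), and Epcam was 1.52 CPM in Ground replicate 2 against 0.621 (0.764). The summed endothelial level was 135 CPM in Space replicate 6 against 114 in the next Space liver (0.767).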

How the results depend on the processing

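In Space against BDF1, where 2 members were called, voom called 4, the fit with no low-count filter 1, replicates 1 to 3 alone 7, replicates 4 to 6 alone 0, and the fits without the Serpina6-high libraries or without Space replicate 6 and BDF1 replicate 3, which carry sperm genes, 1 each. Leaving out single libraries gave 0 (without BDF1 replicate 5) to 4 (without BDF1 replicate 6). Over all genes, calls moved from 488 to 1304 with voom, 281 with no filter, and 1090 and 570 in replicates 1 to 3 and 4 to 6 alone. In Ground against BDF1, where 1 was called, DESeq2 called 4, voom 3, the fit with Xist class 4, replicates 1 to 3 alone 2, an adjusted p under 0.1 gave 4, and the fits without the Serpina6-high or the sperm-gene libraries gave 0 each. Leaving out single libraries gave 0 (without Ground replicate 6, BDF1 replicate 2 or BDF1 replicate 6) to 4 (without Ground replicate 2). Over all genes, calls moved from 489 to 1087 with DESeq2, 551 with voom, 1442 with Xist class and 560 in replicates 1 to 3 alone. Between replicate sets, where 7 were called, total-count scaling gave 3, and the fits without the Serpina6-high libraries and on pups alone gave 4 each, and the fit on BDF1 alone gave 10. Over all genes, calls moved from 4606 to 6308 with total-count scaling and 4455 without the Serpina6-high libraries. They were 3612 of 12465 in pups alone and 3037 of 12698 in BDF1 alone.

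For the interactions, whose alternatives were chosen after seeing the data, leaving out single libraries gave 0 to 1 calls in Space against Ground (0 over all libraries, 1 without Space replicate 4 or Ground replicate 2), 0 to 3 in Space against BDF1 (2 over all, 0 without Space replicate 1, BDF1 replicate 2 or BDF1 replicate 5, 3 without Ground replicate 2) and 0 to 1 in Ground against BDF1 (1 over all). Without the sperm-gene libraries both comparisons with BDF1 gave 0. Ground against BDF1 gave 4 with total-count scaling and 2 without the Serpina6-high libraries. Over all genes, calls in that comparison moved from 374 to 1539 with total-count scaling and 323 without the Serpina6-high libraries. Lrat turned direction in replicates 1 to 3 alone, at 0.959 in Space and 1.12 in Ground against BDF1. The cause of these changes was not tested.

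With the replicate block the counts were 0 in Space against Ground, 2 in Space against BDF1 and 1 in Ground against BDF1, and it changed no member's call. In the 3 comparisons between groups and that between replicate sets, of 126 member results not called, 80 changed sign in at least 1 alternative, and of the 10 called none did. Bile duct keratins and Epcam, at 3 to 40 counts per library, limit what can be said of duct cells.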
